A study of Mus musculus with 16 samples.

Results

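Resident cardiac macrophages are long-lived phagocytes that settle in the heart before birth, renew themselves locally and clear dying cells and debris. After a myocardial infarct, monocytes from the blood enter the left ventricle and become macrophages of their own, so that a piece of infarcted tissue holds both kinds of cell. The genes followed here are listed as genes of the resident cells, but not all are particular to them. Csf1r and Adgre1 are carried by macrophages in general, and Lyve1 also by lymphatic endothelium. The 9 genes are the phosphatidylserine receptor Timd4, the hyaluronan receptor Lyve1, the folate receptor Folr2, the haemoglobin scavenger receptor Cd163, the mannose receptor Mrc1, the carbonyl reductase Cbr2, the CSF1 receptor Csf1r, the apoptotic-cell receptor Mertk and Adgre1, which encodes F4/80. They were chosen by name from the deposited expression table. All 9 were found among its 55492 genes, and all 9 were among the 20576 genes with a mean normalized count of at least 10 that were tested.

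The libraries came from left ventricle tissue of male C57BL/6 mice aged 8 to 12 weeks. PKM2-/- mice lacked the M2 isoform of pyruvate kinase in every cell, because a CMV promoter-driven Cre, since bred out, had deleted the floxed exon of Pkm. The controls, PKM2fl/fl, carried the floxed alleles undeleted, and no group without floxed alleles was analysed here. Each genotype was sampled without surgery (baseline, n = 2), 3 days after a sham operation (n = 3) and 3 days after permanent ligation of the left anterior descending artery (MI, n = 3), which gave 16 libraries in 6 groups. Every value below is a count divided by its library's DESeq2 size factor, called a normalized count. A gene passed the test when limma gave it a Benjamini-Hochberg adjusted p under 0.05 over all genes tested, and was called when it also changed at least 2-fold.

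The libraries held between 20623769 and 71855101 reads. Reads of Ddx3y exceeded those of Xist in 16 of 16 libraries. Pkm, whose count sums both of its isoforms and so cannot show the loss of one, averaged 12482 normalized counts in PKM2-/- and 9355 in PKM2fl/fl hearts at baseline (n = 2 each). Some libraries differed from the others of their group. In PKM2fl/fl MI replicate 3 the 8 cardiomyocyte genes summed to 186692 normalized counts, against 436118 and 418440 in the other MI hearts of its genotype and 197586 to 280188 in the PKM2-/- MI hearts. By the chi-square per gene between the reads of a pair of libraries, which grows with depth, PKM2fl/fl MI replicate 2 was farthest from its group (496 and 569, against 85.3 between the other two), as were PKM2-/- MI replicate 1 (285 and 318, against 15.1) and PKM2-/- sham replicate 3 (181 and 242, against 21.6).

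The 9 genes did not move as one group. After MI, Adgre1, Csf1r, Mertk and Mrc1 rose in both genotypes, Timd4 and Lyve1 fell in both, and Folr2, Cd163 and Cbr2 did not pass the test in either. In PKM2fl/fl hearts 4 of the 9 passed as higher and 2 as lower, against 24.8% and 25.3% of all genes tested. In PKM2-/- hearts the counts were again 4 higher and 2 lower, against 28.7% and 28.1% of all genes. With the 2-fold rule added, 2 members were called higher and 0 lower in PKM2fl/fl, where 12.4% and 11.1% of all genes were called, and 4 were called higher and 1 lower in PKM2-/-, where 14.5% and 14.3% were. Scaling by total counts in place of size factors moved the balance over all genes from 2553 called higher and 2279 lower to 2054 and 2855 in PKM2fl/fl, and from 2974 and 2949 to 5508 and 1518 in PKM2-/- hearts. The median log2 fold change of the 9 was 0.16 in PKM2fl/fl and -0.00 in PKM2-/- hearts, beside -0.00 and 0.01 for all genes tested. Because the tissue was sequenced in bulk, a fall in a gene can mean fewer cells that carry it or less of its RNA per cell. Each value is also scaled to its library, so the RNA of other cells bears on it. These cannot be told apart.

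**Figure D1:**
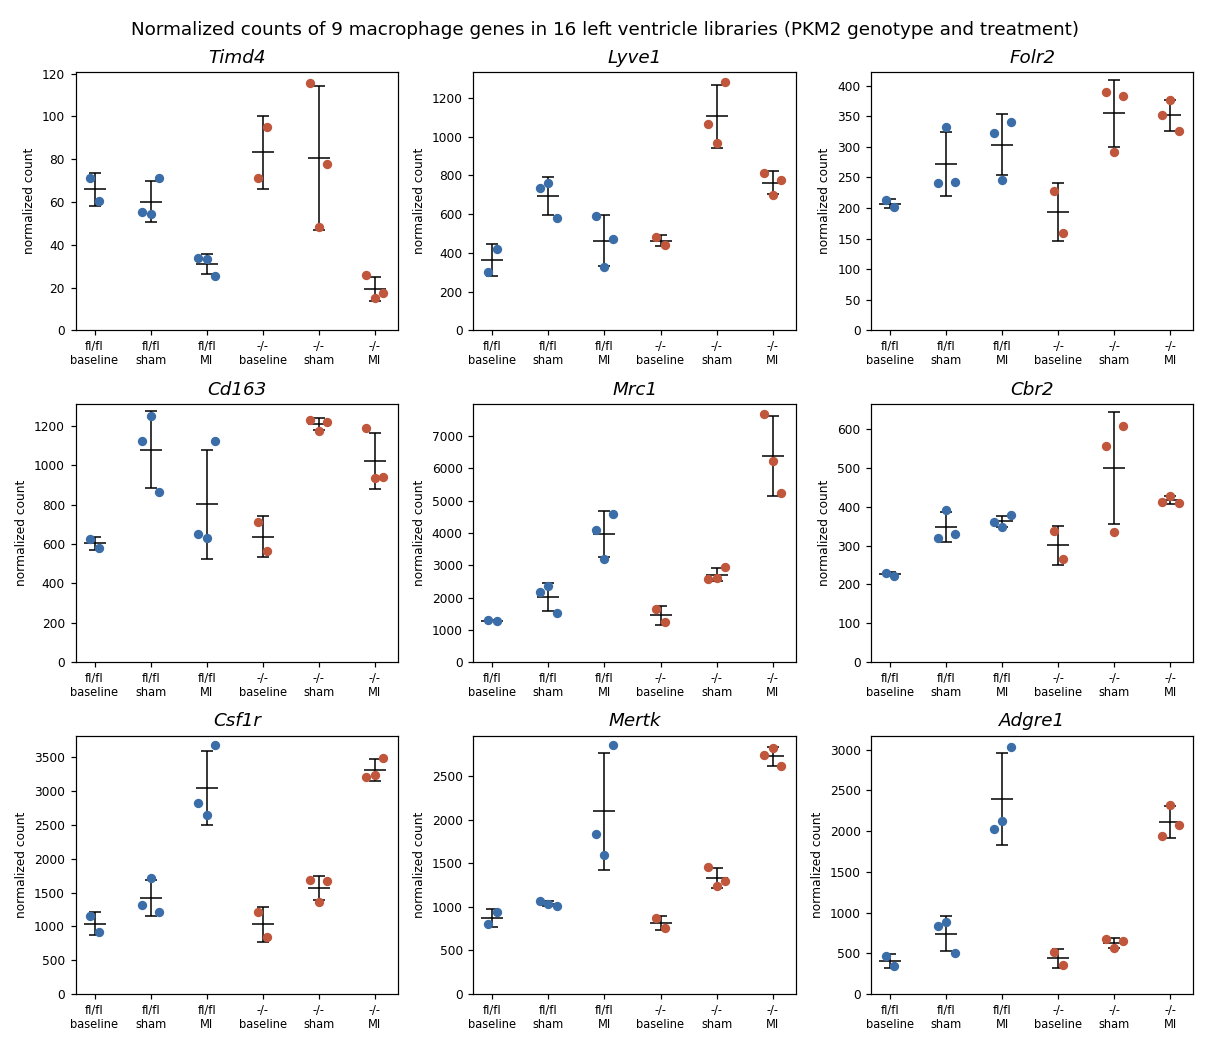
Normalized counts (vertical axes, linear from 0) of the 9 genes in each of the 16 libraries, by PKM2 genotype (blue, PKM2fl/fl; red, PKM2-/-) and treatment; points are libraries, the bar and whiskers are the mean and SD. Timd4 is lowest in both MI groups, and Adgre1, Csf1r, Mertk and Mrc1 are highest there.

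Timd4 encodes TIM-4, a receptor that binds phosphatidylserine on dying cells, and lies on chromosome 11 from 46810786 to 46844333 in the mm10 (GRCm38) build. It was the rarest of the 9, with 12 to 145 reads per library. In PKM2fl/fl hearts its normalized count was 71.4 and 60.4 at baseline, 55.2, 54.4 and 71.1 after sham, and 34.0, 33.2 and 25.6 after MI. In PKM2-/- hearts it was 71.1 and 95.3 at baseline, 116, 48.3 and 77.7 after sham, and 25.9, 15.2 and 17.3 after MI. Every MI heart lay below every sham and baseline heart of both genotypes. The fall from sham was 1.92-fold in PKM2fl/fl hearts (log2 fold change -0.94, SE 0.30, adjusted p 0.0173) and 3.84-fold in PKM2-/- hearts (-1.94, SE 0.30, adjusted p 6.19e-05). The first of these no longer passed without PKM2fl/fl MI replicate 3 (adjusted p 0.0651) or without PKM2fl/fl sham replicate 3 (0.0697), whereas the second passed without any 1 library, at log2 fold changes from -2.26 to -1.64. The 2 falls differed by -1.0015 on the log2 scale (SE 0.43, 95% confidence interval -1.91 to -0.09), and this interaction had an unadjusted p of 0.0335 and an adjusted p of 0.572. With total count scaling the interaction was -0.33 (unadjusted p 0.579). The promoter of Timd4 is shown because it was the only member called lower; capitals mark the letters TGCTGAC (or GTCAGCA on the other strand), a half-site bound by MAF factors, which begins 45 bases before the start of the RefSeq entry.
Timd4 promoter, chr11:46810549-46810848, plus strand: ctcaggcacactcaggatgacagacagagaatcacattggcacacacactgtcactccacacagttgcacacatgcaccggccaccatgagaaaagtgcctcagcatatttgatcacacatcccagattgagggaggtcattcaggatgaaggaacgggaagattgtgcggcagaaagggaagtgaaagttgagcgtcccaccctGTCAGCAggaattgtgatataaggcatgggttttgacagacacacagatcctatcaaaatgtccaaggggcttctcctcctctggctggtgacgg

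Lyve1 encodes a hyaluronan receptor that also marks lymphatic endothelium (chromosome 7, 110850607 to 110862953). Among PKM2fl/fl hearts it measured 303 and 422 normalized counts at baseline, 738, 761 and 579 after sham, and 590.5, 329 and 472 after MI. Among PKM2-/- hearts it measured 485 and 443 at baseline, 1064, 969 and 1285 after sham, and 812, 699 and 778 after MI. The level therefore stood highest after sham in both genotypes, and the sham and MI ranges overlapped in PKM2fl/fl but not in PKM2-/- hearts. It fell 1.52-fold from sham to MI in PKM2fl/fl (log2 fold change -0.61, SE 0.19, adjusted p 0.0143) and 1.44-fold in PKM2-/- hearts (-0.53, SE 0.19, adjusted p 0.0263). Neither fall passed in every leave-one-out fit: the largest adjusted p was 0.0785 in PKM2fl/fl, without MI replicate 2, and 0.110 in PKM2-/-, without sham replicate 3. With total count scaling the PKM2-/- value was -0.02 (adjusted p 0.970). Since lymphatic vessels carry Lyve1 too, 6 other lymphatic endothelial genes were read beside it, of which 4 were tested. Among them Prox1, a lymphatic transcription factor that cardiomyocytes also express, fell by 1.16 and 2.03 on the log2 scale in PKM2fl/fl and PKM2-/- hearts, Reln fell by 0.59 and 0.57, and Flt4, the VEGF-C receptor, rose by 0.46 and 0.32. Mmrn1 measured -0.35 (adjusted p 0.149) and -0.45 (adjusted p 0.0604). The 6 genes summed to 3789.9 to 3912 normalized counts in PKM2fl/fl sham and 2315 to 3177 in PKM2fl/fl MI hearts, and to 3625 to 3836 and 2165 to 2452 in the matching PKM2-/- hearts. Their part in the Lyve1 values was not tested.

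Mrc1, the mannose receptor CD206 (chromosome 2, 14229414 to 14332023), showed the widest range of the scavenger receptors. In PKM2fl/fl hearts it was 1298 and 1267 normalized counts at baseline, 2181, 2351 and 1510.4 after sham, and 4092, 3184 and 4597 after MI. In PKM2-/- hearts it was 1657 and 1246 at baseline, 2585, 2608 and 2934 after sham, and 7669.6, 6229.7 and 5228 after MI. The MI hearts lay above the sham hearts in each genotype, and every PKM2-/- MI heart lay above every PKM2fl/fl MI heart. The rise from sham was 1.98-fold in PKM2fl/fl (log2 fold change 0.98, SE 0.18, adjusted p 0.000353) and 2.33-fold in PKM2-/- hearts (1.22, SE 0.18, adjusted p 3.92e-05). Its promoter is shown as that of the only member that rose and has an entry with a marked motif; capitals mark GAGGAA (or TTCCTC on the other strand), the core recognised by PU.1, the macrophage factor encoded by Spi1.
Mrc1 promoter, chr2:14229164-14229463, plus strand: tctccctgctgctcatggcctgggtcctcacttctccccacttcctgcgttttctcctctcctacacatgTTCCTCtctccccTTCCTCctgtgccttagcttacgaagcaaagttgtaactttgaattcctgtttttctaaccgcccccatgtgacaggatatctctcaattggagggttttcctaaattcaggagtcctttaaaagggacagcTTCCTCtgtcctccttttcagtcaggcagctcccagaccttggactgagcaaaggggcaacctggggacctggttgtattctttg

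Csf1r encodes the receptor for CSF1 and IL-34, on which macrophages depend for survival (chromosome 18, 61105572 to 61131139). The PKM2fl/fl hearts had 1161 and 924 normalized counts at baseline, 1317, 1715 and 1220.2 after sham, and 2819.6, 2640.5 and 3677 after MI. The PKM2-/- hearts had 1214 and 847 at baseline, 1683, 1367 and 1665 after sham, and 3203, 3239 and 3491 after MI. The MI hearts stood clear of the others in both genotypes, while the genotypes overlapped within each treatment. The rise was 2.15-fold in PKM2fl/fl (log2 fold change 1.10, SE 0.16, adjusted p 6.07e-05) and 2.11-fold in PKM2-/- hearts (1.08, SE 0.16, adjusted p 5.08e-05). Without PKM2fl/fl MI replicate 3 the first was 0.96 (adjusted p 0.000255), under 2-fold.

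Mertk, a receptor tyrosine kinase by which macrophages take up apoptotic cells, lies on chromosome 2 from 128698915 to 128803162. Its level in PKM2fl/fl hearts was 804 and 947 normalized counts at baseline, 1063, 1037 and 1007 after sham, and 1839.5, 1595 and 2861 after MI. Its level in PKM2-/- hearts was 867 and 755 at baseline, 1457, 1239 and 1301 after sham, and 2744, 2823 and 2613 after MI. PKM2fl/fl MI replicate 3 was the highest library of all 16, whereas the other PKM2fl/fl MI hearts lay below every PKM2-/- MI heart. Mertk rose 1.96-fold in PKM2fl/fl (log2 fold change 0.97, SE 0.16, adjusted p 0.000132) and 2.05-fold in PKM2-/- hearts (1.04, SE 0.16, adjusted p 5.38e-05). Without PKM2fl/fl MI replicate 3 the first was 0.73 (adjusted p 5.68e-05).

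Adgre1 (chromosome 17, 57358581 to 57483529) encodes F4/80, the surface protein most used to identify mouse macrophages, and changed most among the members that rose. The PKM2fl/fl values were 469 and 340.3 normalized counts at baseline, 841, 885 and 499.5 after sham, and 2025, 2119 and 3036 after MI. The PKM2-/- values were 517 and 357 at baseline, 674, 559 and 649 after sham, and 1939.9, 2319 and 2070.2 after MI. No MI heart overlapped with a sham or baseline heart. The rise was 3.27-fold in PKM2fl/fl (log2 fold change 1.71, SE 0.22, adjusted p 1.42e-05) and 3.36-fold in PKM2-/- hearts (1.75, SE 0.22, adjusted p 7.31e-06). Adgre1 was the only member whose call in PKM2fl/fl hearts held without each of the 6 libraries compared in turn, at log2 fold changes from 1.45 to 1.86.

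Folr2 (chromosome 7, 101839988 to 101857190), Cd163 (chromosome 6, 124304636 to 124330529) and Cbr2 (chromosome 11, 120729485 to 120732025) did not pass between sham and MI. Folr2 averaged 272 ± 51.9 normalized counts (SD, n = 3) after sham and 303 ± 49.9 after MI in PKM2fl/fl hearts, and 354 ± 54.8 and 352 ± 25.0 in PKM2-/- hearts. The 95% confidence intervals of its log2 fold change, -0.22 to 0.54 and -0.38 to 0.38, lay inside a 2-fold change in both genotypes. Cbr2 averaged 348 ± 38.0 after sham and 363 ± 14.7 after MI in PKM2fl/fl, and 499.7 ± 144 and 417 ± 9.86 in PKM2-/- hearts, with intervals of -0.31 to 0.44 and -0.59 to 0.16. Cd163 averaged 1079.8 ± 195 and 801 ± 278 in PKM2fl/fl hearts, a log2 fold change of -0.47 (SE 0.19, adjusted p 0.055). In this group the MI hearts measured 649, 631 and 1122, and without the third, PKM2fl/fl MI replicate 3, the difference was -0.74 and passed (adjusted p 0.000939). In PKM2-/- hearts Cd163 averaged 1208 ± 30.8 after sham and 1022 ± 144 after MI (log2 fold change -0.25, adjusted p 0.283). The promoter of Cbr2 is shown as that of a member with both marked motifs that did not pass; GAGGAA (or TTCCTC) begins 79 bases before the start and TGCTGAC (or GTCAGCA) 40 bases after it.
Cbr2 promoter, chr11:120731972-120732271, minus strand: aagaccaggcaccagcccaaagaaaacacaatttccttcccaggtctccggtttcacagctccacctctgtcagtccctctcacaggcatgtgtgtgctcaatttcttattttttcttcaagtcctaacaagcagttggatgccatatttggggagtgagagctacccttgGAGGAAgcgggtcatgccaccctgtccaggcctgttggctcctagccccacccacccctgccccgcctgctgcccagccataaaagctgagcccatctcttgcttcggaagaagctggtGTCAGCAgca

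These sequences are RefSeq promoters of the GRCm38.p6 assembly, 250 bases before to 50 after a gene's start. Of the 9 members, 6 matched an entry: Timd4, Folr2, Cd163, Mrc1, Cbr2 and Mertk. Counting both strands, GAGGAA occurs in 28.3% of all 32851 promoters of 300 bases, TGCTGAC in 4.67% and the AP-1 letters TGAGTCA (or TGACTCA) in 5.2%. Among the members GAGGAA occurred in the promoters of Mrc1, 3 times, and Cbr2, TGCTGAC in those of Timd4 and Cbr2, and TGAGTCA in 1 of the 2 entries of Folr2. The 3 motifs share no stretch in the promoters printed, and members with a motif were found among those that rose, fell and did not pass.

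**Figure D2:**
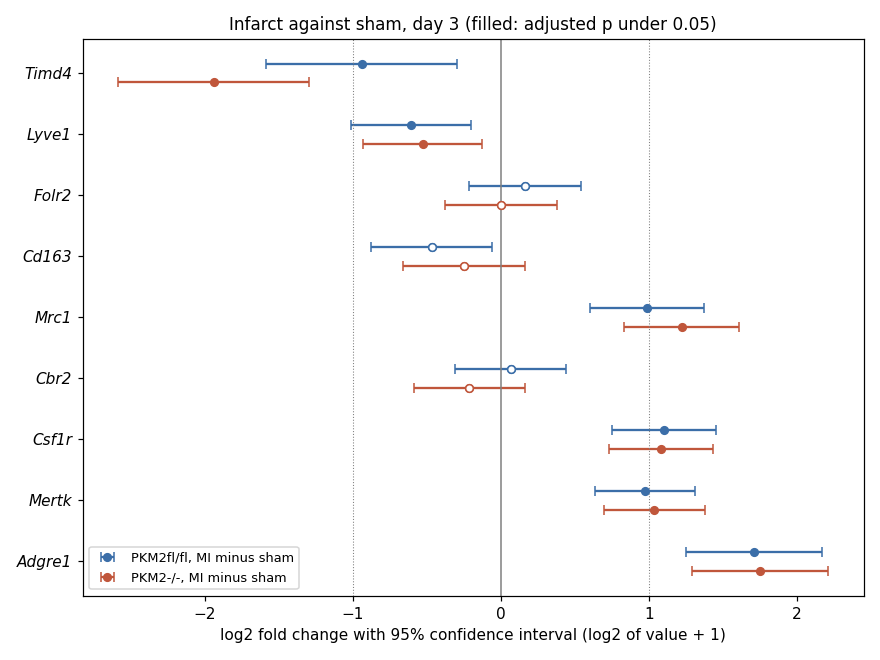
Log2 fold change from sham to MI (horizontal axis, with 95% confidence intervals from limma) for the 9 genes in PKM2fl/fl (blue) and PKM2-/- (red) hearts; filled points passed the test and dotted lines mark a 2-fold change. Timd4 and Lyve1 lie below 0, Adgre1, Csf1r, Mertk and Mrc1 above it, and the intervals of the genotypes overlap for every gene.

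The same genes can be read against other macrophage genes in the same library. Of 15 genes shared by most macrophages, 14 passed as higher after MI in each genotype and 0 as lower, with a median log2 fold change of 1.76 in PKM2fl/fl and 1.97 in PKM2-/- hearts. Among them the lysosomal protein gene Cd68 rose by 3.09 and 2.78, the protease gene Ctss by 2.77 and 2.68, the transcription factor gene Spi1 by 1.72 and 1.99 and Laptm5 by 1.94 and 1.73, all on the log2 scale in PKM2fl/fl and PKM2-/- hearts. The rises of Csf1r, Mertk and Mrc1 were smaller than each of these, and that of Adgre1 lay close to those of Spi1 and Laptm5. These genes were named for their small p and need not stand for the rest of the 15. By the 2-fold rule 12 of the 15 were called higher in each genotype. Those that passed without being called rose less than Csf1r. Subtracting the mean log2 level of the 15 genes from that of each member gave -3.07 ± 0.54 (SD, n = 3) for Timd4 in PKM2fl/fl sham and -5.79 ± 0.33 in PKM2fl/fl MI hearts, and -2.95 ± 0.39 and -6.74 ± 0.40 in the PKM2-/- hearts. For Lyve1 the same difference was 0.43 ± 0.19 after sham and -1.95 ± 0.30 after MI in PKM2fl/fl, and 0.89 ± 0.22 and -1.48 ± 0.14 in PKM2-/- hearts. Because the 15 genes rose after MI, any gene that kept its own level stands lower on this relative scale. Folr2, Cd163 and Cbr2, whose own levels did not pass, therefore moved down on it: Folr2 from -0.92 ± 0.17 to -2.54 ± 0.10 in PKM2fl/fl, Cd163 from 1.06 ± 0.12 to -1.18 ± 0.39 and Cbr2 from -0.56 ± 0.23 to -2.27 ± 0.10. Adgre1 was at 0.49 ± 0.23 after sham and 0.43 ± 0.28 after MI in PKM2fl/fl hearts, and at 0.08 ± 0.10 and -0.02 ± 0.10 in PKM2-/- hearts. These differences are a description and were not tested.

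**Figure D3:**
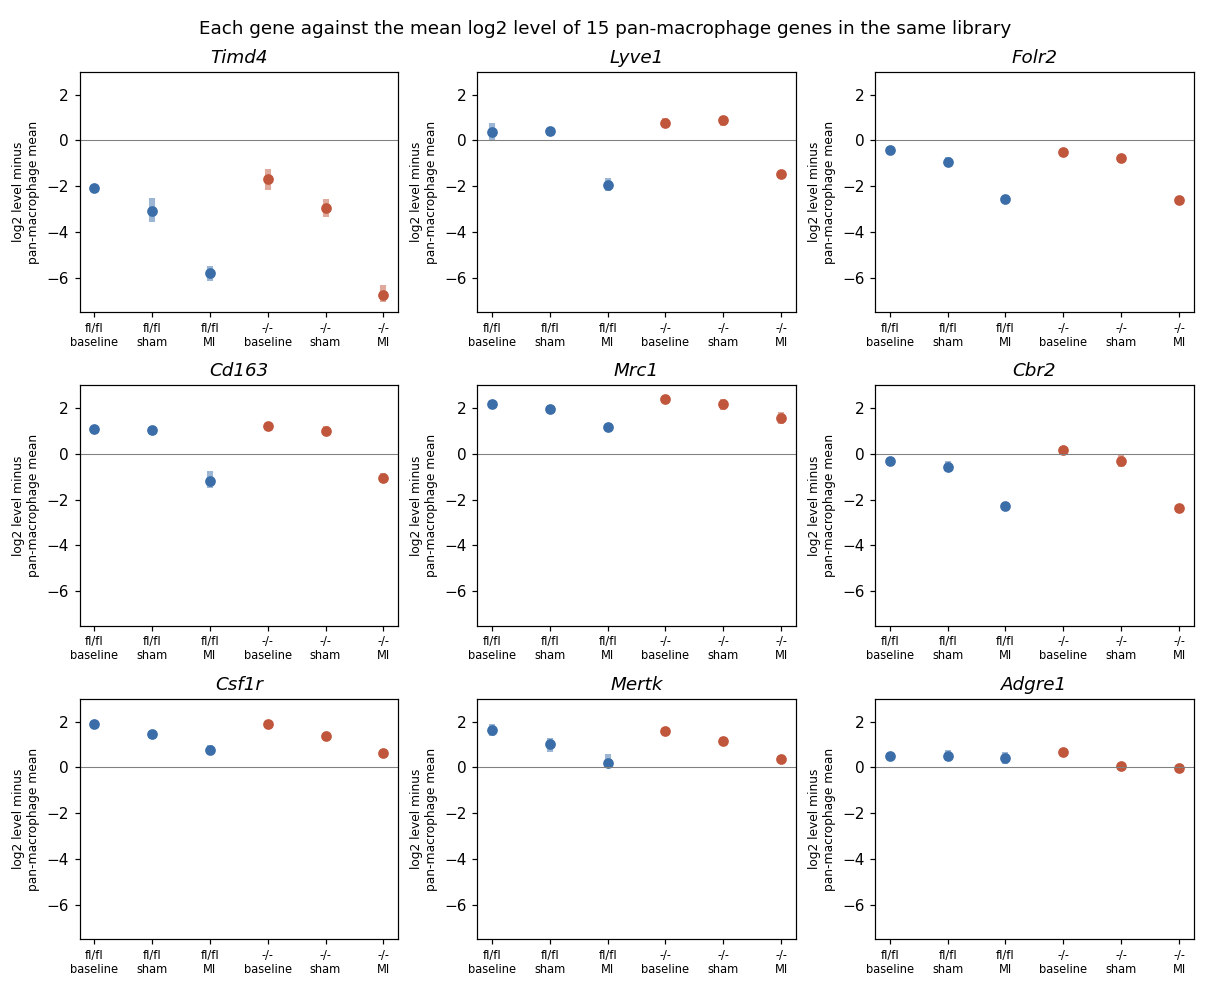
Log2 level of each of the 9 genes minus the mean log2 level of 15 pan-macrophage genes in the same library (vertical axes), by group; points are group means and bars run from the lowest to the highest library. Timd4 stands lowest after MI, at -5.79 and -6.74, and Adgre1 differs least between sham and MI.

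Genes of recruited monocytes moved in the same hearts. All 13 of those tested passed as higher after MI in both genotypes, with a median log2 fold change of 3.30 in PKM2fl/fl and 3.76 in PKM2-/- hearts; a further 2 of the list were listed at 0 in every library. The chemokine receptor gene Ccr2 rose by 3.30 (SE 0.36) and 3.87 (SE 0.36), Plac8 by 3.36 and 2.96, the proteoglycan gene Vcan by 2.20 and 2.20 and the thrombospondin gene Thbs1 by 3.86 and 3.76. The list summed to 1631 to 3998 normalized counts in PKM2fl/fl sham hearts and 24403 to 47978 in PKM2fl/fl MI hearts, and to 3594 to 3781 and 41091 to 58629 in the PKM2-/- hearts. Of the 18 other genes used to mark resident macrophages, 15 were tested; 8 passed as higher and 2 as lower in PKM2fl/fl, and 9 and 2 in PKM2-/- hearts. The chemokine gene Pf4 rose by 2.43 and 2.93 and the scavenger receptor gene Stab1 by 1.54 and 1.49, whereas the transporter gene Slco2b1 fell by 1.03 and 1.68. This list, like the 9 members, held genes that rose and genes that fell. The part that entering cells had in the members' values was not tested.

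The signalling partners of Csf1r and Mertk were read next. Of 9 ligands and effectors of the CSF1 receptor, 7 passed as higher and 0 as lower in PKM2fl/fl, and 7 and 1 in PKM2-/- hearts. The phosphatase gene Inpp5d rose by 1.78 and 1.80 and the transcription factor gene Cebpa by 1.74 and 1.78, beside Spi1 above. Of 14 tested genes for MERTK ligands and dead-cell uptake, 10 passed as higher and 3 as lower in PKM2fl/fl, and 9 and 3 in PKM2-/- hearts. Axl, a kinase of the same family as MERTK, rose by 0.63 and 0.39 and the endocytic receptor gene Lrp1 by 1.19 and 1.21, while the fatty acid transporter gene Cd36, which cardiomyocytes and endothelium also express, fell by 1.34 and 1.47. Timd4 and Mertk, which both serve the uptake of dying cells, moved in opposite directions in each genotype.

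Genes of other cells of the ventricle were read as well. Of all genes tested, 24.8% passed as higher and 25.3% as lower after MI in PKM2fl/fl hearts. In PKM2-/- hearts these shares were 28.7% and 28.1%. Of 8 cardiomyocyte genes, 7 passed as lower in PKM2fl/fl and 8 in PKM2-/- hearts, among them Pln by -1.67 and -2.21, Ryr2 by -1.37 and -1.92, Myl2 by -2.07 and -2.19 and Tnni3 by -1.99 and -2.22. Of 7 fibroblast genes, 5 passed as higher and 1 as lower in each genotype, with Postn at 3.82 and 3.59, Col1a1 at 3.22 and 3.11, Col1a2 at 2.85 and 2.78 and Col3a1 at 2.54 and 2.68. Of 7 neutrophil genes tested, 4 passed as higher in each genotype: Csf3r, Mmp9, Cxcr2 and Mmp8. Of 6 dendritic cell genes tested, 3 passed as higher in each genotype (Itgae, Flt3 and Ccr7) and 1, Zbtb46, as lower. Of 6 endothelial genes, 2 passed as higher in each genotype, and 1 as lower in PKM2fl/fl and 2 in PKM2-/- hearts; Cdh5 rose by 0.76 and 0.75 and Tek fell by 0.28 and 0.30. Emcn (0.72) and Kdr (-0.57) passed in PKM2-/- hearts and measured 0.31 (adjusted p 0.0962) and -0.15 (adjusted p 0.426) in PKM2fl/fl. The part of these cells in the members' values was not tested.

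The genotypes did not differ in any member by the main test. Before surgery 0 of the 9 passed, against 0.00972% of all genes, and 0 had an unadjusted p under 0.05; DESeq2 and edgeR also gave 0. After sham 0 passed in limma and edgeR, against 0.00972% of all genes in limma, while DESeq2 passed Lyve1; 5 members (Cbr2, Folr2, Lyve1, Mertk and Mrc1) had an unadjusted p under 0.05, as did 9.95% of all genes, and all 5 were higher in PKM2-/- hearts. Without PKM2fl/fl sham replicate 3 these were 2 higher (Lyve1 and Cbr2) and 1 lower (Adgre1, -0.46), beside 8.19% of all genes. After MI 0 passed in limma and edgeR, against 0.967% of all genes in limma, while DESeq2 passed Lyve1 and Mrc1; 4 (Lyve1, Mrc1, Mertk and Timd4) had an unadjusted p under 0.05 in limma, as did 17.0% of all genes, and of these Timd4 alone was lower in PKM2-/- hearts. For the mean of the 3 treatments 0 passed in limma and edgeR, against 0.102% of all genes in limma, with 4 (11.4% of all genes) under 0.05 unadjusted, and DESeq2 again passed Lyve1 and Mrc1.

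Lyve1 came nearest. It was higher in PKM2-/- than in PKM2fl/fl hearts in each treatment with no overlap between the genotypes, by 1.30-fold at baseline (464 ± 29.3 against 362 ± 84.1, SD, n = 2), 1.60-fold after sham (1106 ± 162 against 692 ± 99.0, n = 3) and 1.69-fold after MI (763 ± 57.9 against 464 ± 131, n = 3), although with total count scaling the baseline difference turned to -0.21 on the log2 scale. The log2 fold change after MI was 0.75 (SE 0.19, adjusted p 0.0659), and DESeq2 gave an adjusted p of 0.0128; over the 3 treatments it was 0.60 (SE 0.12, adjusted p 0.0722), against 0.00133 by DESeq2. Without PKM2fl/fl MI replicate 3 the limma values were 0.79 (adjusted p 0.0275) after MI and 0.61 (adjusted p 0.0162) over the treatments, both of which passed. Of the 4 lymphatic genes tested, Prox1 was lower in PKM2-/- hearts after MI (log2 fold change -0.92, adjusted p 0.0486) and Flt4, Mmrn1 and Reln did not pass; their part was not tested. Mrc1 was 1.61-fold higher in PKM2-/- hearts after MI (6376 ± 1227 against 3958 ± 716, n = 3, log2 fold change 0.69, SE 0.18, adjusted p 0.074), and without that library the difference was 0.80 and passed (adjusted p 0.0148). Mertk (0.67, adjusted p 0.00101) and Cd163 (0.66, adjusted p 0.0106) also passed after MI without it, against 0.42 (adjusted p 0.192) and 0.39 (adjusted p 0.313) with it. Leaving out this 1 library moved the count of members that passed between the genotypes after MI from 0 to 4 and the share of all genes from 0.967% to 11.1%. Over the treatments the members went from 0 to 3 (Lyve1, Mertk and Mrc1) and all genes from 0.102% to 3.49%. Omitting any other MI library went the opposite way after MI. All genes that passed fell from 199 to 20 and 17 without PKM2fl/fl replicates 1 and 2. They fell to 15, 48 and 11 without PKM2-/- replicates 1, 2 and 3. The largest leave-one-out adjusted p after MI by limma was 0.26 for Lyve1, 0.294 for Mrc1, 0.579 for Mertk and 0.699 for Cd163. Timd4 measured 19.5 ± 5.67 in PKM2-/- and 30.9 ± 4.64 in PKM2fl/fl MI hearts, a log2 fold change of -0.66 (adjusted p 0.281), with overlapping ranges. For Csf1r the difference after MI was 0.13, with a 95% confidence interval of -0.22 to 0.49, and for Adgre1 it was -0.16, with an interval of -0.62 to 0.30. Of 7 neutrophil genes tested, 0 passed between the genotypes after MI, with a median log2 fold change of 1.36. The 10 genes of that list summed to 4393 to 5654 normalized counts in PKM2-/- and 1491 to 2741 in PKM2fl/fl MI hearts. Of 8 cardiomyocyte genes 0 passed, with a median log2 fold change of -0.44. Their sums overlapped between the genotypes only through PKM2fl/fl MI replicate 3 (186692). The other PKM2fl/fl MI hearts (436118 and 418440) lay above every PKM2-/- MI heart (197586 to 280188). The part of neutrophil and cardiomyocyte genes in the members' differences was not tested.

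**Figure D4:**
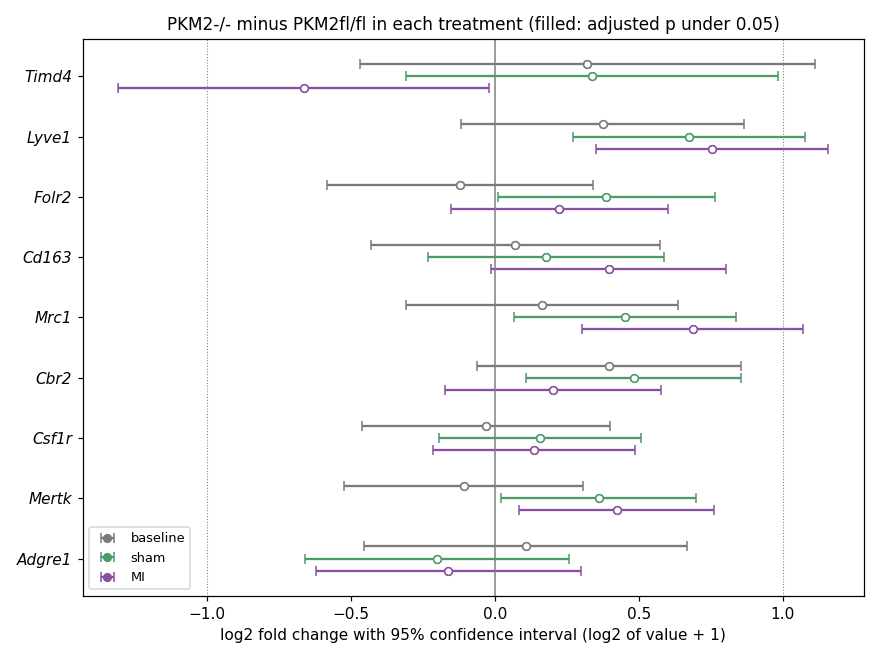
Log2 fold change of PKM2-/- against PKM2fl/fl hearts (horizontal axis, with 95% confidence intervals from limma) at baseline, after sham and after MI for the 9 genes. All points are open because no gene passed the test; Lyve1 lies above 0 in each treatment, though its baseline value turned to -0.21 with total count scaling.

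The change from sham to MI was also compared between genotypes as an interaction. Of the 9 genes 0 passed in limma, DESeq2 and edgeR, as did 0% of all genes tested in limma. Only 1, Timd4, had an unadjusted p under 0.05 in each tool, as did 8.28% of all genes in limma. The other 8 differed between the genotypes by -0.28 (Cbr2) to 0.24 (Mrc1) on the log2 scale. With total count scaling they ran from 0.41 (Cbr2) to 0.93 (Mrc1, limma adjusted p 0.256). That scaling moved the median of all genes by 0.68. With size factors the intervals for Csf1r (-0.52 to 0.47), Mertk (-0.42 to 0.54) and Adgre1 (-0.61 to 0.69) lay within a 2-fold difference. Without PKM2fl/fl MI replicate 3 again 0 members passed, while 2.37% of all genes did; Cd163 was then 0.49 (adjusted p 0.226), Mrc1 0.35 (adjusted p 0.518) and Mertk 0.31 (adjusted p 0.274), against 0.22, 0.24 and 0.06 with it.

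Sham and baseline hearts were compared within each genotype. In PKM2-/- hearts 5 of the 9 passed as higher after sham than at baseline, against 3.48% of all genes, and 1, Lyve1, was also called, against 2.06%. Lyve1 rose 2.37-fold (log2 fold change 1.24, SE 0.21, adjusted p 0.00449), Folr2 1.84-fold (adjusted p 0.0186), Cd163 1.90-fold (adjusted p 0.0214), Mrc1 1.88-fold (adjusted p 0.0175) and Mertk 1.64-fold (adjusted p 0.0312). Among the others Cbr2 measured 0.69 (adjusted p 0.055), Csf1r 0.63 (adjusted p 0.0642), Adgre1 0.54 (adjusted p 0.237) and Timd4 -0.12 (adjusted p 0.914) on the log2 scale. These are limma values. DESeq2 passed 7 members, adding Cbr2 and Csf1r, and edgeR passed 4, without Mertk (edgeR adjusted p 0.0539). Over all genes and in either direction, limma passed 1058 here, DESeq2 1393 and edgeR 739. In PKM2fl/fl hearts 0 of the 9 passed in limma and edgeR, against 0.165% of all genes in limma, while DESeq2 passed Adgre1, Cd163 and Lyve1, and 6 had an unadjusted p under 0.05, as did 8.81% of all genes. There Lyve1 measured 0.94 (SE 0.21, adjusted p 0.0896), Adgre1 0.85 (adjusted p 0.188) and Cd163 0.82 (adjusted p 0.144). The log2 fold change was above 0 for 8 members, all but Timd4, as it was for 53.4% of all genes. With 2 baseline hearts per genotype, leaving out PKM2-/- baseline replicate 2 ended all 5 passes in PKM2-/- hearts (Lyve1 then at adjusted p 0.0511) and took all genes that passed in either direction from 5.14% to 1.53%. Mertk did not pass in any of the 5 fits that left out 1 library, among them that without PKM2-/- sham replicate 3 (adjusted p 0.0536). Lyve1 passed in 1 genotype and not in the other, but whether the rise differed between genotypes was not tested. The sham and MI comparisons share the sham hearts, so that a high sham value raises the first and lowers the second. Pan-macrophage genes passed as higher after sham in 9 of 15 cases in PKM2-/- and 1 of 15 in PKM2fl/fl hearts, and 6 of 7 neutrophil genes in PKM2-/- and 0 of 7 in PKM2fl/fl hearts. In PKM2fl/fl sham replicate 3 the neutrophil genes summed to 256 normalized counts, against 1424 and 1547 in the other sham hearts of its genotype, and this library also had the lowest Lyve1, Cd163, Mrc1, Csf1r, Mertk and Adgre1 of the 3. Without it Lyve1 (1.06, adjusted p 0.0333), Adgre1 (1.11, adjusted p 0.0197) and Cd163 (0.97, adjusted p 0.048) passed in PKM2fl/fl hearts, and all genes that passed in either direction went from 39 to 282; the part of neutrophils was not tested.

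**Figure D5:**
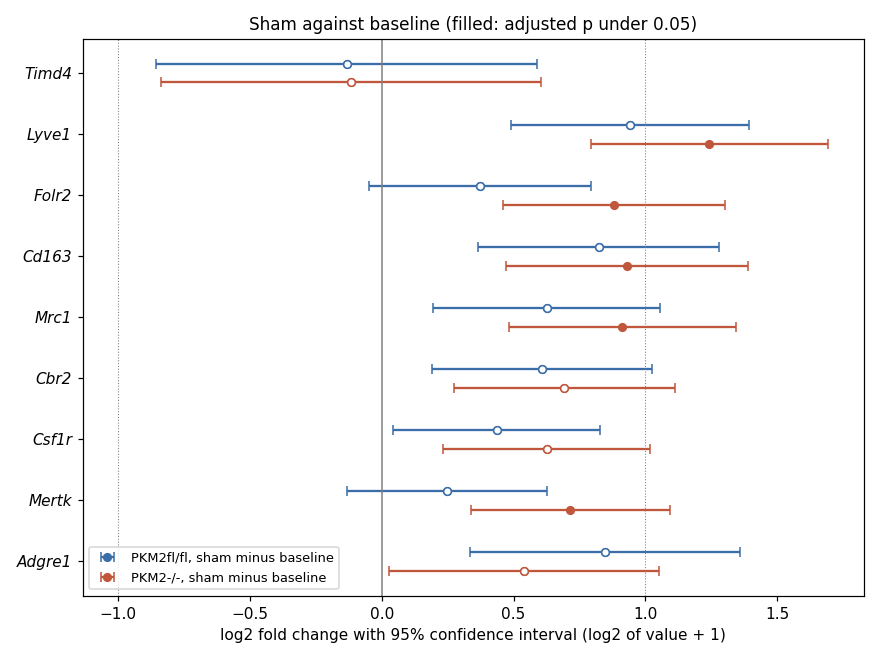
Log2 fold change from baseline to sham (horizontal axis, with 95% confidence intervals from limma) for the 9 genes in PKM2fl/fl (blue) and PKM2-/- (red) hearts; filled points passed the test. Every gene but Timd4 lies above 0 in both genotypes, and the filled points are 5 genes in PKM2-/- hearts.

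Ordered by level, the 6 groups gave different rankings for different members. Timd4 ran from PKM2-/- baseline (83.2 ± 17.1 normalized counts, n = 2) through PKM2-/- sham, PKM2fl/fl baseline and PKM2fl/fl sham to PKM2fl/fl MI and PKM2-/- MI, and of these neighbours only PKM2fl/fl sham and PKM2fl/fl MI did not overlap. Lyve1 ran from PKM2-/- sham through PKM2-/- MI, PKM2fl/fl sham, PKM2-/- baseline and PKM2fl/fl MI to PKM2fl/fl baseline, where PKM2-/- sham stood clear of PKM2-/- MI, and PKM2fl/fl sham of PKM2-/- baseline. Mrc1 ran from PKM2-/- MI through PKM2fl/fl MI, PKM2-/- sham and PKM2fl/fl sham to the baselines, with the first 4 groups separate from each other. Csf1r and Mertk had the same order as Mrc1 down to PKM2fl/fl sham, but their MI groups overlapped, as did the sham groups of Csf1r. For Adgre1 PKM2fl/fl MI came first, overlapping PKM2-/- MI. Compared per kilobase of exon, at baseline in PKM2fl/fl hearts, Timd4 was lowest at 16.6 normalized counts per kilobase, followed by Lyve1 at 87.1, and the other 7 lay between 109 (Cd163) and 182 (Mertk). After MI in the same genotype Timd4 stood at 7.81 and Adgre1, the highest, at 679.7 per kilobase.

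Over the 16 libraries the members differed in how alike their levels were, given as a description because the libraries share 3 treatments. Adgre1, Csf1r, Mertk and Mrc1 correlated with each other at Pearson's r of 0.90 to 0.97 on the log2 scale. Timd4 correlated with these 4 at -0.86 to -0.82. Lyve1, Folr2, Cd163 and Cbr2 correlated with each other at 0.70 to 0.86, and Lyve1 with Timd4 at 0.01. These sets were not separate: Folr2 correlated with Mrc1 at 0.78, Csf1r at 0.73, Mertk at 0.73 and Adgre1 at 0.62, and Cbr2 with Mrc1 at 0.61. Among all other genes tested, those most like Csf1r were Rac2 (r = 0.990), Gm2a (0.989), Mki67 (0.987), Lyz2 (0.987) and Lrrc25 (0.987). Those most like Timd4 were Tex261 (0.950), Sdr39u1 (0.950), Smim19 (0.945), Rragb (0.945) and 2310015A10Rik (0.943). Those most like Lyve1 were less close: Slc16a14 (0.877), C3 (0.868), Mbd1 (0.862), Map3k6 (0.861) and Fam107a (0.860).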

How the data were processed

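Total RNA from left ventricles, with an RNA integrity number of at least 8, was depleted of ribosomal RNA and sequenced in pairs. Per the paper's methods and the labels, the authors used PRINSEQ for trimming, HISAT2 for alignment to mm10 and featureCounts for gene counts, and deposited the signal, counts divided by DESeq2 size factors; versions are not given in the sources used here. Whole reads were recovered for 100% of values within 0.02 reads or 1e-05 of the count, whichever was larger, so depth is known.

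Values were tested as log2(value + 1) with limma 3.58.1 (trend, empirical Bayes, R 4.3.3) over 16 libraries in 6 groups, on genes with a mean of at least 10, with Benjamini-Hochberg adjustment, so fold changes of low genes are understated. Recovered reads were also tested with DESeq2 1.42.0, which passed 10847 genes for MI against sham in PKM2fl/fl and 12040 in PKM2-/- hearts, and edgeR 4.0.16, which passed 10741 and 12058, against 10299 and 11679 by limma. The tests were first checked on simulated data. The labels do not say whether replicates were littermates. Libraries were treated as separate mice, so p-values measure the spread between mice that may share litters. Named genes were the 9 members, at most 4 per list by smallest p in either MI contrast, and the 5 most correlated with Timd4, Lyve1 and Csf1r; 2 of the genes so chosen are not reported here. The members and lists were chosen with earlier results of these data known. Exon lengths came from GENCODE M39. Alternatives were other tools, scalings, filters and pseudocounts, a replicate block and leaving out each library.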

Additional observations from a re-analysis of the deposited data

How the results depend on the processing

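By the 2-fold rule the number of members called was 2 for MI against sham in PKM2fl/fl, 5 in PKM2-/- and 1 for sham against baseline in PKM2-/- hearts. With no fold threshold these were 6, 6 and 5. Leaving out 1 library gave 1 to 4, 3 to 5 and 0 to 3 members, and 0 to 2 for sham against baseline in PKM2fl/fl hearts. Total count scaling gave 1 call (Lyve1) for the genotypes after MI, against 0, and 2 (Cd163 and Lyve1) for sham against baseline in PKM2-/- hearts, against 1. It also moved the median of all genes, by 0.51 for MI against sham in PKM2-/- and by -0.59 for the genotypes at baseline. Replicate numbers did not pair the hearts (same-numbered libraries correlated at -0.20 to 0.13); with a replicate block 2, 5 and 1 members were called as before. Over all genes, limma, DESeq2 and edgeR passed 0, 60 and 0 for the interaction, 2, 11 and 1 for the genotypes at baseline, 2, 266 and 2 after sham, 199, 1029 and 138 after MI, 21, 306 and 14 over the treatments, and 39, 349 and 26 for sham against baseline in PKM2fl/fl hearts. For sham against baseline in PKM2-/- hearts they passed 1058, 1393 and 739.

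Of 1314 alternative values of single members, 1177 kept direction and side of the threshold, 43 passed where the main value had not, 29 no longer passed and 65 changed sign; 0 of these 65 passed on either side. Under total count scaling the changed values were, for MI against sham, Folr2 -0.0158 and Cbr2 -0.11 in PKM2fl/fl and Folr2 0.51, Cd163 0.26 and Cbr2 0.30 in PKM2-/- hearts. For the interaction they were Folr2 0.53, Cbr2 0.41 and Csf1r 0.67. For the genotypes they were Timd4 -0.26, Lyve1 -0.21, Cd163 -0.52, Mrc1 -0.43, Cbr2 -0.19 and Adgre1 -0.48 at baseline, Cd163 -0.14 and Csf1r -0.16 after sham, Adgre1 0.21 after MI, and Folr2 -0.0179 and Csf1r -0.0945 over the treatments. Timd4 was 0.0947 for sham against baseline in PKM2-/- hearts. With TMM scaling Folr2 was 0.0184 for MI against sham in PKM2-/- hearts and Csf1r 0.0144 for the interaction. With edgeR and no filter they were 0.0139 and 0.0024. Timd4 over the treatments was 0.0258 by DESeq2, 0.0213 by edgeR and 0.0181 by edgeR with no filter. Leaving out 1 library, the values that changed sign ranged from -0.14 to 0.0714 for Folr2 (MI against sham, PKM2-/-); for the interaction from -0.15 to 0.27 for Lyve1, -0.17 to 0.12 for Csf1r, -0.11 to 0.31 for Mertk and -0.11 to 0.30 for Adgre1; at baseline from -0.38 to 0.13 for Folr2, -0.10 to 0.24 for Cd163, -0.0412 to 0.37 for Mrc1, -0.29 to 0.23 for Csf1r, -0.23 to 0.0096 for Mertk and -0.16 to 0.37 for Adgre1. They ranged from -0.27 to 0.0225 for Adgre1 after MI, -0.10 to 0.10 for Timd4 and -0.17 to 0.0035 for Adgre1 over the treatments, and -0.42 to 0.20 for Timd4 (sham against baseline, PKM2-/-). The cause of these changes was not tested. With 12 to 145 reads per library, Timd4 is the member whose counts limit precision most.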
